A study of Mus musculus with 3 samples.

Results

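The 1396 DMC1 sites of mouse chromosome 3 were described here out of 24586 sites in the whole deposited table, 23631 of them on the 19 autosomes and 955 on the X chromosome. All sites of the chromosome were taken, and they were set against the 22235 sites of the other 18 autosomes. Chromosome 3 was chosen by measured values of this table, since its median ratio of DMC1 to H3K4me3 was the highest of the autosomes and its difference in H3K4me3 between the sites of the 2 PRDM9 alleles the smallest. The ratio, its DMC1 and H3K4me3 components and the allele difference are therefore given as a description. The sites came from whole testis of F1 hybrid males of a C57BL/6 (B6) by CAST cross, in which one Prdm9 allele carried the humanised zinc fingers (HUM) and the other was the CAST allele. The DMC1 animal was 10 weeks old and the other animals were labelled adult. Each assay had 1 library, so no spread between animals could be given, no test was possible, and the spread quoted is the SD over the other 18 autosomes. Whole testis mixes all stages of spermatogenesis with somatic cells. The header of the deposited table credits the raw H3K4me3 data to an earlier study and does not say whether they are the H3K4me3 library listed with this series.

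PRDM9 is a zinc finger protein of meiotic cells that binds DNA by a motif set by its allele and trimethylates lysine 4 of histone H3 (H3K4me3) on the nucleosomes around it. SPO11 then cuts a small part of the bound sites, the ends are resected, and DMC1, the meiosis-specific recombinase, loads on the single strands and searches for the homologue. H3K4me3 at a hotspot is thus known as a mark of PRDM9 binding, and DMC1 as a mark of breaks whose repair is under way. DMC1 signal is known to depend both on how often a site is cut and on how long the recombinase stays. In a hybrid, a motif can be intact on 1 homologue and eroded on the other, so that binding and cutting fall on a single homologue.

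Each site carries a DMC1 heat, an H3K4me3 enrichment, the share of each signal that came from the B6 homologue (the B6 share), and an allele class. The heat and the enrichment are in the authors' own units, so their ratio is relative and has no meaning as DMC1 molecules per nucleosome. On chromosome 3, 747 sites were classed CAST, 537 HUM, 111 UNK and 1 KO. UNK sites made up 7.95% of them, against 8.12% of the sites of the other autosomes. The last 2 classes are not defined in the header. DMC1 ran between 8.13 and 1139, H3K4me3 between 0.590 and 179.5, and the ratio between 0.0633 and 70.8.

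Of the 1637 chromosome 3 promoters in the RefSeq GRCm38.p6 (mm10) table, which is not complete, 7 held the centre of a DMC1 site, and these 7 windows covered 6 sites. Sequence was at hand for promoters only, so the 4 with the strongest DMC1 are printed to show the DNA at sites of the chromosome. Each window runs from 250 bases before the gene start to 50 after, 5' to 3' on the strand of the gene, and the 31 capitals are centred on the DMC1 centre.
Gm52617: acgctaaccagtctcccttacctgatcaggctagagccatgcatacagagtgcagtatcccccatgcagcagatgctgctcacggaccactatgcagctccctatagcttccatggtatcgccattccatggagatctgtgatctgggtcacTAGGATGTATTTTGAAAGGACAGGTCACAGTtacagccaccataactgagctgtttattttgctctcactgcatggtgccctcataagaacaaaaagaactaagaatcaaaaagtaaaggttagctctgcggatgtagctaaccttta
Gm40175: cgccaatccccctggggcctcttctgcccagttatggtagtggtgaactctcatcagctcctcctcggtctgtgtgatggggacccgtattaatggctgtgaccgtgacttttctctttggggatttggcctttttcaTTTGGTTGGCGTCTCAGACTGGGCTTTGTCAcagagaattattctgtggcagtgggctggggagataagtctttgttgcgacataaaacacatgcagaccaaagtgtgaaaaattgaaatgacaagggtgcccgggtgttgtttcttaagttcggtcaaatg
Gm34119: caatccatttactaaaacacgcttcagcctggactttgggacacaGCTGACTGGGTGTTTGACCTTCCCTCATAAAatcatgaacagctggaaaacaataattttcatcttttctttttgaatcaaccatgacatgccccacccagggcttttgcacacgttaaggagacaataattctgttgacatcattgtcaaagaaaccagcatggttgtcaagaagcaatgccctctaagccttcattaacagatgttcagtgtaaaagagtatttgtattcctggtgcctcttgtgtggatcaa
Gm33162: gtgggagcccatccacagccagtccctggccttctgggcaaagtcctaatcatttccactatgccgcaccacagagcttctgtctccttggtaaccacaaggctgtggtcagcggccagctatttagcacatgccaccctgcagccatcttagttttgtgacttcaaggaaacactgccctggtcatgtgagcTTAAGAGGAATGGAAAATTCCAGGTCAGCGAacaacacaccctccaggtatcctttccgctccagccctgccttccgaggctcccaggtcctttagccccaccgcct
The Gm52617 window (chr3:138086457-138086756, minus strand) held a CAST site 83 bases before the gene start, with a DMC1 of 421, an H3K4me3 of 22.2 and a ratio of 18.95. Its B6 share was 0.995 for DMC1 and 0.974 for H3K4me3, so nearly all of both signals came from the B6 homologue. The Gm34119 window (chr3:121920662-121920961, plus strand) held a CAST site with a DMC1 of 275 and a ratio of 18.97, with a DMC1 B6 share of 0.717. The Gm33162 window (chr3:101517184-101517483, minus strand) held a CAST site with a DMC1 of 126, a ratio of 12.4 and a B6 share of 0.985. These 3 CAST sites had ratios above the chromosome 3 median of 7.63. The Gm40175 window (chr3:147968098-147968397, plus strand) held a UNK site that overlapped an H3K4me3 peak found without PRDM9, and its ratio was 4.12 at a DMC1 of 318 and an H3K4me3 of 77.2. The remaining sites were a CAST site before Erich3, also at a PRDM9-independent peak, with a DMC1 of 48.5 and a ratio of 0.394, and a HUM site before Otol1, with a DMC1 of 9.37. GC content was 46.3% for Gm52617, 49% for Gm40175, 41% for Gm34119 and 55.3% for Gm33162, against a median of 53% over 31396 autosomal promoters of the same length.

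The median ratio of DMC1 to H3K4me3 was 7.63 on chromosome 3, against 5.96 over the sites of the other autosomes, a difference of 0.36 on the log2 scale (1.28-fold). The medians of the other 18 autosomes averaged 2.58 ± 0.11 on the log2 scale (SD), against 2.93 on chromosome 3. Chromosome 12 came next at 2.75, then chromosome 16 and chromosome 18, both at 2.72, and chromosome 11 was lowest at 2.40. Chromosome 12 thus lay farther below chromosome 3 than it lay above chromosome 16. The ratio was over the upper quartile of the other autosomes, 9.98, at 497 of the 1396 chromosome 3 sites (35.6%), against 25% of the other autosomes' sites. It was under their lower quartile, 3.49, at 245 sites (17.6%), again against 25%. These counts restate the choice of the chromosome. The sites of chromosome 3 varied among themselves as much as those elsewhere, with an SD of the log2 ratio of 1.22 on chromosome 3 and 1.19 on the other autosomes.

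Over all sites, the H3K4me3 component stood farther from the other autosomes than DMC1, and the order of the components depended on repeated H3K4me3 values. Median H3K4me3 was 10.01 on chromosome 3, against 11.7 over the other autosomes, the lowest of the 19 (log2 difference -0.22, SD over the other autosomes 0.09). The next lowest was chromosome 4 at 10.5, and chromosome 11 was highest at 13.4. Median DMC1 was 64.5 on chromosome 3, against 61.3 over the other autosomes, and ranked 5th of 19 (log2 difference 0.08, SD 0.07). The other autosomes ranged between 56.8 on chromosome 9 and 67.1 on chromosome 18, so the DMC1 level lay inside their spread. By sums, chromosome 3 held 5.91% of autosomal sites, 6.31% of autosomal DMC1 and 5.16% of autosomal H3K4me3. Many H3K4me3 values in the table are not distinct. On chromosome 3, 71.4% of sites shared their H3K4me3 value with some other site of the table, against 62.5% on the other autosomes. Of the chromosome 3 sites, 957 (68.6%) shared it with a site of another chromosome. Without any site of a repeated value, an alternative chosen after seeing the data, the ratio difference was 0.41, the DMC1 difference 0.16 and the H3K4me3 difference -0.06. The ratio was thus as high without repeated values, but which component stood farther from the other autosomes turned round. The plot of medians by autosome shows these values.

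**Figure D1:**
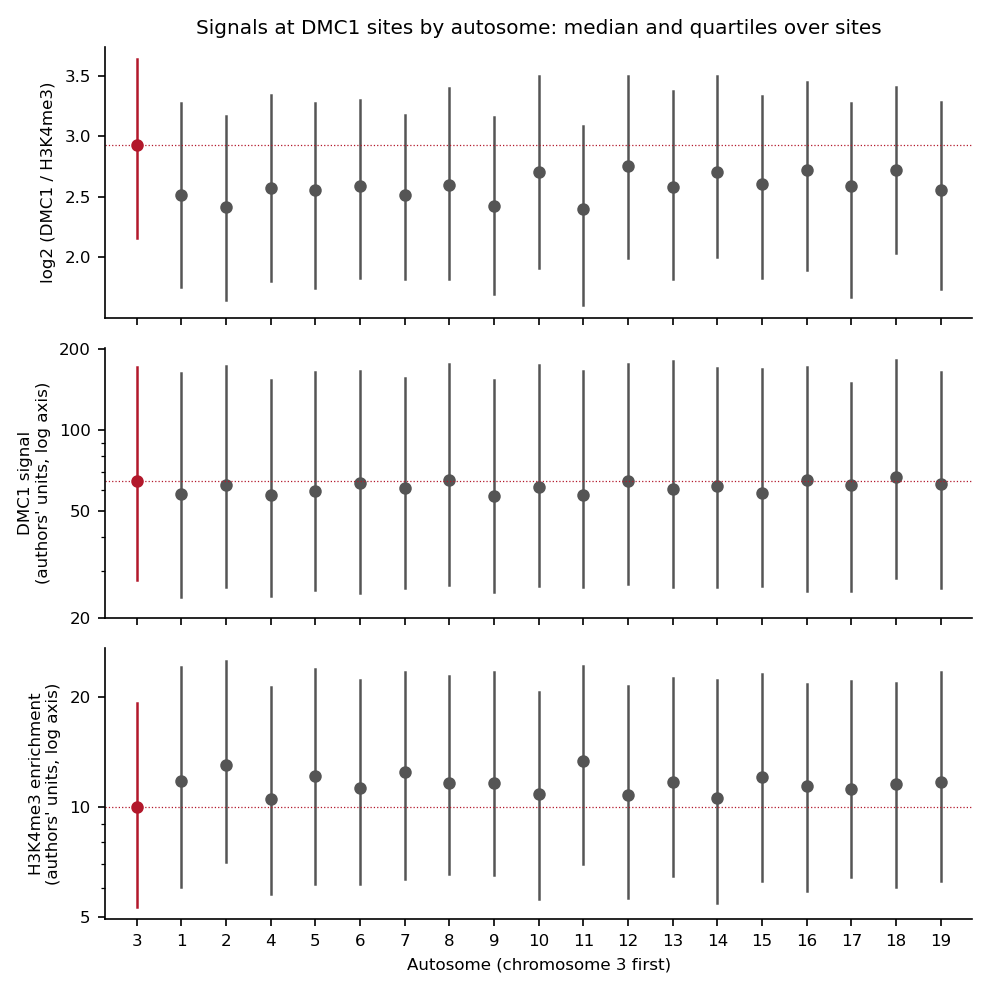
Log2 ratio of DMC1 to H3K4me3 (top), DMC1 (middle) and H3K4me3 (bottom, both in the authors' units on log axes) for each autosome, with points for medians over sites, bars for the quartiles over sites and a dotted line at the chromosome 3 median. Chromosome 3, drawn first, has the highest ratio (2.93) and the lowest H3K4me3 (10.01), while its DMC1 (64.5) lies among the others.

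Over all sites of each class, the 2 PRDM9 alleles departed from the other autosomes in different components. These values include sites with repeated H3K4me3 values, and this split was not tested without them. CAST sites of chromosome 3 had a median H3K4me3 of 10.2, against 13.5 on the other autosomes, the lowest of the 19, with the next lowest at 12.1 on chromosome 10. Their median DMC1 was 77.9 on chromosome 3 and 83.1 on the other autosomes, 16th of 19. The CAST sites thus had lower H3K4me3 with DMC1 near the rest. HUM sites of chromosome 3 had a median DMC1 of 62.2, against 51.4 on the other autosomes, the highest of the 19, just above chromosome 16 at 61.9. Their median H3K4me3 was 10.00 on chromosome 3 and 10.5 on the other autosomes. The HUM sites thus had higher DMC1 with H3K4me3 near the rest. The median log2 ratio was the highest of the autosomes in both classes. It was 3.11 on chromosome 3 against 2.77 on the other autosomes for CAST sites. For HUM sites it was 2.83 on chromosome 3 against 2.41 on the other autosomes. Since the ratio chose the chromosome, these ranks in large part restate the choice. UNK sites did not stand out in the ratio, at 2.10 on chromosome 3 against 2.03 on the other autosomes, 8th of 19. Their median DMC1 was high, at 30.3 on chromosome 3 and 21.2 on the other autosomes, 2nd of 19. Their median H3K4me3 was 8.41 on chromosome 3 and 7.84 on the other autosomes.

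The small gap between the alleles in H3K4me3, one of the values that chose the chromosome, came with a small gap in DMC1. CAST minus HUM sites differed by 0.02 in median log2 H3K4me3 on chromosome 3, against 0.36 on the other autosomes. The next smallest was 0.22 on chromosome 15 and the largest 0.55 on chromosome 13. In median log2 DMC1, CAST minus HUM was 0.32 on chromosome 3, against 0.69 on the other autosomes, again the smallest, with chromosome 16 next at 0.35 and chromosome 8 largest at 0.87. The ratio itself differed by allele about as much as elsewhere, by 0.27 on chromosome 3 against 0.35 on the other autosomes, 17th of 19.

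**Figure D2:**
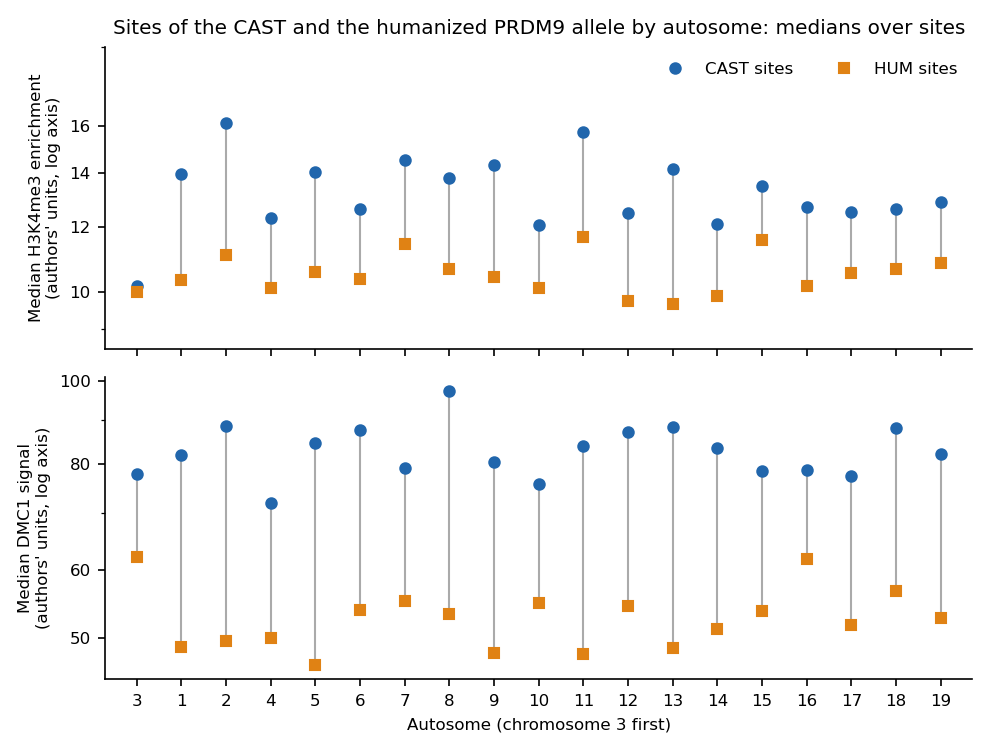
Median H3K4me3 (top) and DMC1 (bottom), in the authors' units on log axes, at CAST sites (circles) and HUM sites (squares) of each autosome, with a line joining the 2 medians and chromosome 3 first. On chromosome 3 the H3K4me3 medians nearly meet, at 10.2 for CAST and 10.00 for HUM, and the HUM DMC1 median (62.2) is the highest of the autosomes.

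The share of sites given to each allele was not unusual. CAST sites made up 58.2% of the CAST and HUM sites of chromosome 3 (exact Clopper-Pearson 95% interval 55.4 to 60.9%), against 57.1% on the other autosomes. Intervals of this kind cover counting error only. DMC1 and H3K4me3 were related across sites about as elsewhere, with a Spearman correlation of 0.711 on chromosome 3 and 0.716 on the other autosomes. This is a correlation across sites that share both libraries and is a description.

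Chromosome 3 had more DMC1 than the other autosomes at matched H3K4me3 over nearly the whole range. Since the ratio chose the chromosome, this in large part restates the choice. All autosomal sites were cut into 20 bins of H3K4me3, and the chromosome 3 median DMC1 was higher in 18 of the 20. Weighted by the chromosome 3 sites in each bin, the difference was 0.36 on the log2 scale. Chromosome 12 came next at 0.21 and chromosome 11 was lowest at -0.23. In bin 10, near an H3K4me3 of 10.8, median DMC1 was 86.8 on chromosome 3 and 56.7 on the other autosomes. In bin 12, where the difference was greatest (0.69), it was 129.6 on chromosome 3 and 80.2 on the other autosomes. In bin 2 the medians were 19.1 on chromosome 3 and 19.1 on the other autosomes. Between these, bins 3 and 4 differed by 0.33 and 0.37, bin 8 by 0.13, and bins 15 and 16 by 0.60 and 0.59, so the difference did not follow H3K4me3 in order.

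Bin 20, the strongest H3K4me3, ran the other way, with a median DMC1 of 153 on chromosome 3 and 279 on the other autosomes (log2 difference -0.87). It held 48 chromosome 3 sites, and 26 of them (54.2%) overlapped a PRDM9-independent H3K4me3 peak, against 38.4% on the other autosomes. Without those sites DMC1 was still lower, at 245 over 22 sites of chromosome 3 and 387 on the other autosomes. Chromosome 3 had 29.5% of its sites in the 5 lowest bins and 19.2% in the 5 highest, where an even spread would give 25% each.

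**Figure D3:**
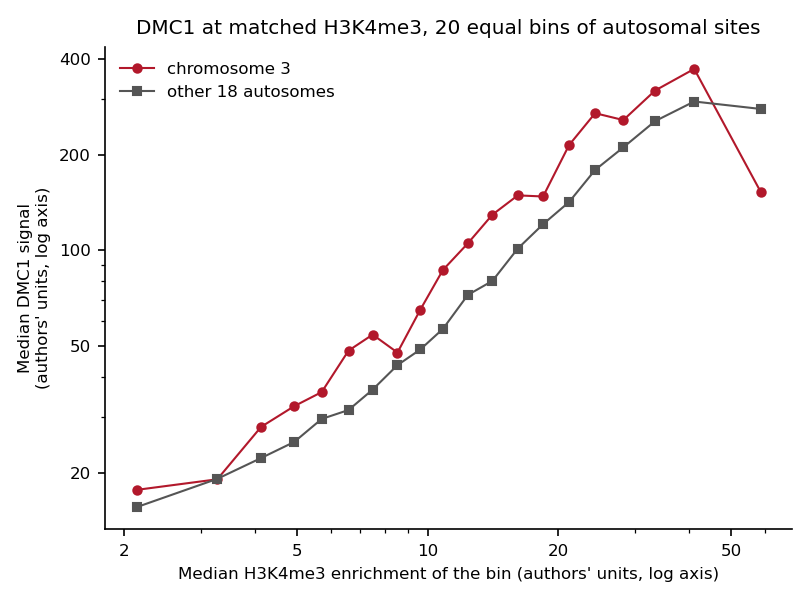
Median DMC1 of chromosome 3 sites (circles) and of the sites of the other 18 autosomes (squares) in 20 bins of H3K4me3, against the median H3K4me3 of the bin (authors' units, log axes). Chromosome 3 lies above in 18 bins, meets the others in bin 2 and lies below in the highest bin, at 153 against 279.

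PRDM9-independent H3K4me3 peaks, such as those of promoters, overlapped 112 chromosome 3 sites, 8.02% (exact interval 6.65 to 9.57%), against 8.72% on the other autosomes. At these sites the median log2 ratio was 1.24 on chromosome 3 and 1.47 on the other autosomes, 16th of 19. At the sites without such an overlap it was 2.99 on chromosome 3 and 2.64 on the other autosomes, the highest of the 19. Most sites are of this kind, so that rank in large part restates the choice of the chromosome. The higher ratio was therefore seen at sites away from PRDM9-independent peaks, while sites at them lay below the pooled median of the other autosomes.

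The higher ratio was also present where both homologues carried the mark. At sites with an H3K4me3 B6 share between 0.3 and 0.7, the median log2 ratio of CAST sites was 2.86 on chromosome 3 (411 sites) and 2.54 on the other autosomes. That of HUM sites was 2.68 on chromosome 3 (279 sites) and 2.26 on the other autosomes. Both ranked highest of the autosomes, which in large part restates the choice of the chromosome by its ratio. CAST sites of this kind had a median H3K4me3 of 10.2 on chromosome 3 and 14.9 on the other autosomes, the lowest of the 19. Their median DMC1 was also low, at 65.0 on chromosome 3 and 74.6 on the other autosomes, 18th of 19. HUM sites of this kind had a median DMC1 of 62.2 on chromosome 3 and 53.4 on the other autosomes, 4th of 19. Their median H3K4me3 was 11.9 on chromosome 3 and 13.3 on the other autosomes, 15th of 19. At these sites H3K4me3 was thus below the pooled median of the other autosomes in both classes. It was the lowest of the 19 at CAST sites only.

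Sites marked on a single homologue had ratios that were higher again, as on the other autosomes. Sites with an H3K4me3 B6 share over 0.9 were marked on B6 almost alone, and CAST sites among them had a median log2 ratio of 4.07 on chromosome 3 (77 sites) and 3.80 on the other autosomes. HUM sites among them had 3.41 on chromosome 3 (35 sites) and 2.96 on the other autosomes. At sites with a share under 0.1, marked on the CAST homologue, CAST sites had 3.93 on chromosome 3 (28 sites) and 3.62 on the other autosomes. HUM sites had 3.87 on chromosome 3 (34 sites) and 3.41 on the other autosomes, with a median DMC1 of 186 on chromosome 3 and 111 on the other autosomes, the highest of the 19. All 4 of these classes lay among the 3 highest autosomes, on few sites. These ranks also restate in part the choice by the ratio.

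The homologue that carried DMC1 was a measure the choice of chromosome did not use. The median DMC1 B6 share was 0.500 on chromosome 3 and 0.468 on the other autosomes, the highest of the 19. The other autosomes ran between 0.435 on chromosome 18 and 0.489 on chromosome 13, with an SD of 0.0125. CAST sites had a median share of 0.525 on chromosome 3 and 0.493 on the other autosomes, and HUM sites 0.468 on chromosome 3 and 0.440 on the other autosomes. The median H3K4me3 share was 0.528 on chromosome 3 and 0.521 on the other autosomes. It was 0.549 on chromosome 3 and 0.532 on the other autosomes at CAST sites (2nd of 19), and 0.505 on chromosome 3 and 0.509 on the other autosomes at HUM sites (13th of 19). At sites with an even H3K4me3 share, between 0.45 and 0.55, the DMC1 share of HUM sites was 0.470 on chromosome 3 (107 sites) and 0.434 on the other autosomes. That of CAST sites was 0.463 on chromosome 3 (161 sites) and 0.450 on the other autosomes. The 2 shares followed each other across sites as elsewhere, with a Spearman correlation of 0.846 on chromosome 3 (1225 sites) and 0.844 on the other autosomes. A DMC1 share was not given at 9.17% of chromosome 3 sites, against 7.58% on the other autosomes, and an H3K4me3 share at 9.31% of chromosome 3 sites, against 6.20% on the other autosomes, the most of the 19. The part of these missing values in the shares was not tested.

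CAST sites with DMC1 almost only on B6 were about as frequent as on the highest other autosome. A DMC1 B6 share over 0.9 was found at 171 of 689 CAST sites of chromosome 3, 24.8% (exact interval 21.6 to 28.2%), against 21.1% on the other autosomes, with chromosome 13 next at 24.7%. A share under 0.1 was found at 73 of them, 10.6%, against 10.1% on the other autosomes. At HUM sites both shares lay close to those of the other autosomes. A share under 0.1 was found at 98 of 486 HUM sites, 20.2%, against 18.7% on the other autosomes. A share over 0.9 was found at 85 of them, 17.5%, against 17.1% on the other autosomes. The H3K4me3 shares gave lower figures. A share over 0.9 stood at 77 of 674 CAST sites (11.4%), against 10.8% on the other autosomes and 8th of 19, and at 35 of 494 HUM sites (7.09%), against 7.25% on the other autosomes. A share under 0.1 stood at 28 CAST sites (4.15%), against 3.57% on the other autosomes, and at 34 HUM sites (6.88%), against 6.56% on the other autosomes.

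**Figure D4:**
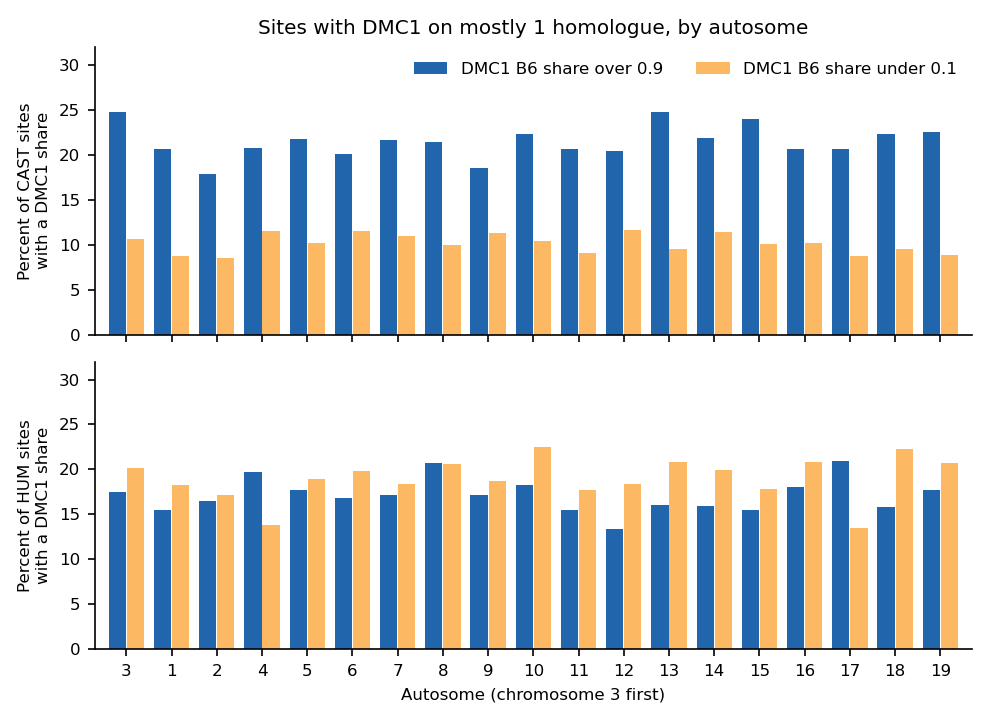
Percent of the CAST sites (top) and of the HUM sites (bottom) with a DMC1 B6 share over 0.9 or under 0.1, by autosome with chromosome 3 first, among sites with a share. CAST sites over 0.9 reach 24.8% on chromosome 3 and 24.7% on chromosome 13, and on chromosome 3 the HUM bars (17.5% over 0.9 and 20.2% under 0.1) lie among those of the other autosomes.

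The ratio was high along most of the chromosome. Cut into 32 windows of 5 Mb, the chromosome had 31 windows with at least 10 sites, of 10 to 83 sites each, and 27 of these 31 had a median above that of the other autosomes' sites. This compares with 48.8% of the 457 windows of the other autosomes. The count of windows also restates the choice of the chromosome in part, as the choice used the ratio. The range of window medians was 1.33 on chromosome 3, against a mean of 1.49 ± 0.34 over the other autosomes (SD), 13th of 19. The highest was at 145 to 150 Mb, with 63 sites, a median log2 ratio of 3.55, a DMC1 of 69.96 and an H3K4me3 of 7.54. Next came 50 to 55 Mb with 3.30 over 80 sites, 120 to 125 Mb with 3.26 and 115 to 120 Mb with 3.24. The lowest were the end of the chromosome after 155 Mb, with 2.23 over 25 sites, then 90 to 95 Mb with 2.39 over 28 sites. The window at 75 to 80 Mb followed, with a median ratio of 5.65 on the linear scale over 35 sites. CAST sites had the higher median H3K4me3 in 13 of the 27 windows with at least 5 sites of each allele, against 76.4% of the windows of the other autosomes. The choice of the chromosome used this allele difference as well, so that count in large part restates it. Within windows, CAST minus HUM in median log2 H3K4me3 ran between -1.004 at 135 to 140 Mb and 1.07 at 5 to 10 Mb. The first of these windows held 28 CAST and 15 HUM sites, and the second 16 and 14. The same range in windows of the other autosomes is not given, so the size of this range cannot be judged. The chromosome-wide 0.02 came from windows of both signs.

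Stretches were drawn after the windows had been seen, and serve as a description. Before 75 Mb, 549 sites had a median log2 ratio of 2.96, and CAST minus HUM was 0.20 in H3K4me3 and 0.59 in DMC1. Between 75 and 115 Mb, 399 sites had 2.67, and all 8 windows lay between 2.39 and 2.90. There the allele gap in H3K4me3 was turned round, at 10.4 for CAST and 12.4 for HUM (log2 difference -0.24). This stretch held 509 protein-coding genes, and 11.03% of its sites overlapped PRDM9-independent peaks. That overlap was 7.10% before 75 Mb (261 genes) and 6.86% between 115 and 155 Mb. Between 115 and 155 Mb, 423 sites had 3.20, with windows between 2.96 and 3.55, on 200 genes. DMC1 was 77.0 there, and it was 82.1 for CAST and 77.5 for HUM (log2 difference 0.08). After 155 Mb, 25 sites had the lowest ratio of the stretches, 2.23, on 13 genes and with an overlap of 0%. Low ratios thus did not go with genes and such peaks in every stretch.

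**Figure D5:**
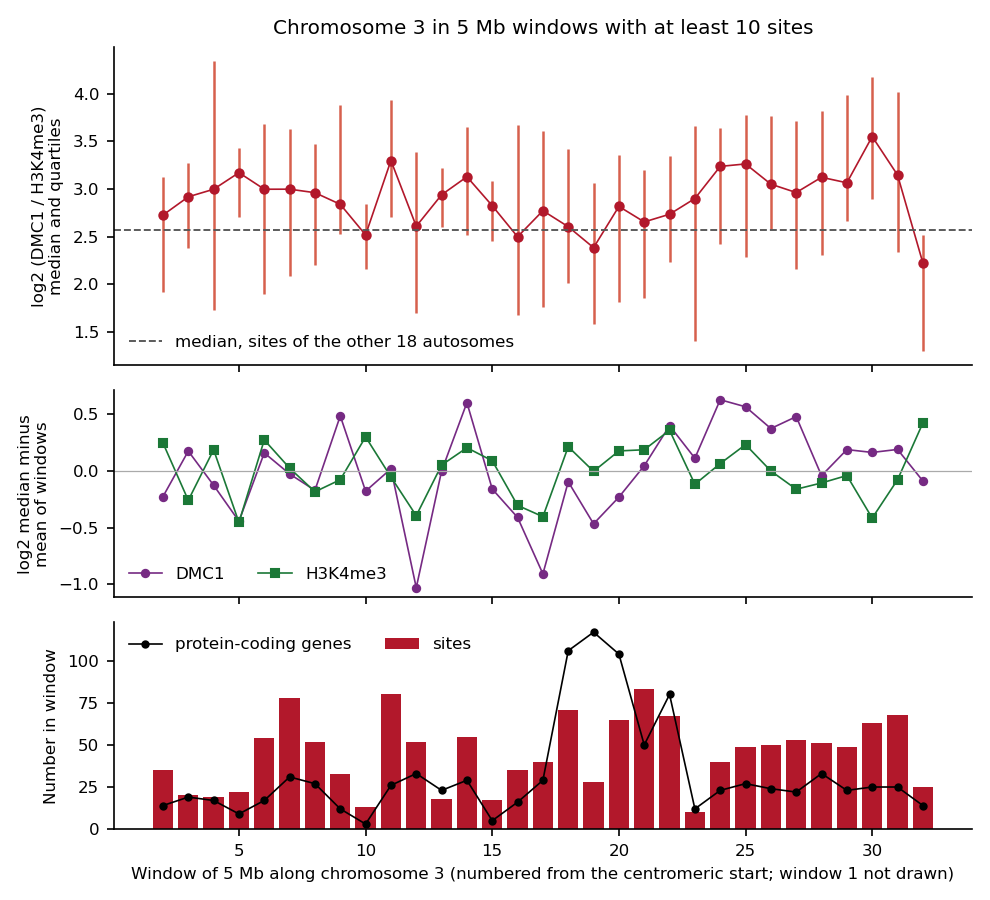
Chromosome 3 in windows of 5 Mb, numbered from its start so that window 30 is 145 to 150 Mb, and drawn where a window has at least 10 sites: median log2 ratio with quartiles over sites and a dashed line at the median of the other autosomes' sites (top), log2 medians of DMC1 and H3K4me3 minus their mean over windows (middle), and numbers of sites and of protein-coding genes (bottom). Windows 24 to 31 lie at 2.96 or above, window 30 is highest at 3.55 and window 32 lowest at 2.23.

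The strongest CAST site lay 6.69 kb from Plrg1, a spliceosome component, at position 83078979, with a DMC1 of 1139, an H3K4me3 of 36.5 and a B6 share of 0.668. The second, at position 53353790 and 92.1 kb from Lhfp, had a DMC1 of 1052 on an H3K4me3 of only 17.9 and a B6 share of 0.995. The other three were at 9028609 near Tpd52, with a DMC1 of 1002 at a PRDM9-independent peak, at 80057898 near Gask1b, with 1001 and a B6 share of 0.995, and at 27416718 inside Fndc3b, with 945 and a B6 share of 0.989. Of these 5 strongest CAST sites, 3 used B6 almost alone. The 5 strongest HUM sites were more even. The first was inside Arhgef38 at 133115732, with a DMC1 of 771, an H3K4me3 of 46.0 and a B6 share of 0.447. The others were at 78928886, 134 kb from Rapgef2, with 726, at 130927747, 183 kb from Lef1, a transcription factor of Wnt signalling, with 647 and a B6 share of 0.895, at 95673572 near Adamtsl4 with 618, and at 107259500 near Lamtor5 with 614. Of the 100 strongest chromosome 3 sites, all at 432.9 or more, 73 were CAST, 24 HUM and 3 UNK, where CAST made up 53.5% and HUM 38.5% of all sites of the chromosome. Among the 98 of them with a share, 41 (41.8%) had a DMC1 B6 share over 0.9, 13 (13.3%) had one under 0.1 and 32 (32.7%) had one between 0.3 and 0.7. Over all 1268 chromosome 3 sites with a share, these were 21.8%, 14.4% and 43.0%. The median H3K4me3 of the 100 was 30.2, against 10.01 over all sites of the chromosome. Inside protein-coding genes lay 46 of them, against 46.8% of all sites, and 4 overlapped PRDM9-independent peaks, against 8.02%.

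The 5 named sites with the highest ratio had DMC1 almost only on 1 homologue. The B6 shares given for them are those of DMC1. Among the stronger sites of the chromosome, the first was at 123128920 inside Synpo2, an actin-binding protein of muscle, with a ratio of 70.8, a DMC1 of 481, an H3K4me3 of 6.80 and a B6 share of 0.00742. The Lhfp site followed with a ratio of 58.6. The others were at 150652663, 785 kb from Adgrl4, with 56.9 and a B6 share of 0.00602, a HUM site at 129865723 inside Cfi, complement factor I, with 53.1 and a B6 share of 0.00725, and a site at 52193768, 74.6 kb from Foxo1, a transcription factor of insulin signalling, with 47.5 and a B6 share of 0.982. All 5 lay beyond 0.9 or 0.1 in DMC1 share. In H3K4me3 share the sites at 150652663 (0.263) and 52193768 (0.867) did not. The 5 lowest ratios were 0.0633 at 6138003, where H3K4me3 was 151 and DMC1 9.54, then 0.139 near Sfrp2, a secreted Wnt antagonist, 0.167 inside Ghsr, the ghrelin receptor, 0.168 at 58251807 near Tsc22d2, and 0.171 inside Snx27, a sorting nexin. Of these 5, 4 overlapped PRDM9-independent peaks, the site near Tsc22d2 being the other. Such an overlap was found at 8.02% of all chromosome 3 sites and at 54.2% of those in bin 20. The way these 5 were picked favours high H3K4me3, so the count is no result about them.

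Among the 100 strongest sites, the 3 most confined to B6 were at 135722490 near Nfkb1, a subunit of NF-kB, with a B6 share of 0.998, at 153819716 near Asb17 with 0.998, and at 115968025 inside Slc30a7, a zinc transporter, with 0.997. The 3 most confined to the CAST homologue were a HUM site at 117544364 near Plppr5 with 0.00485, a CAST site at 102096388 inside Casq2, the calcium-binding protein of cardiac muscle, with 0.00654, and the Synpo2 site. The strongest sites of the high windows were CAST sites, at 146340905 near Lpar3, a receptor for lysophosphatidic acid, with a DMC1 of 845, at the Lhfp site, and at 123637697 inside Ndst3, a heparan sulfate enzyme, with 790. Those of the low windows were HUM sites, at 155013488 inside Tnni3k, a cardiac kinase, with 176, at 94816545 near Pogz with 268, and at the site near Rapgef2. These are single sites, and the lowest window held 18 CAST and 6 HUM sites. Over the 31 windows, the Spearman correlation of the ratio with the percent of CAST sites was 0.18.

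Hotspots of chromosome 3 lay less often inside genes than those of any other autosome, on a chromosome with little gene sequence. The site centre was inside a protein-coding gene at 653 of 1396 chromosome 3 sites, 46.8% (exact interval 44.1 to 49.4%), against 54.4% on the other autosomes. Chromosome 13 was close at 47.0%. Protein-coding genes covered 32.8% of chromosome 3, the least of the 19, against 35.3% on chromosome 13 and 48.1% on chromosome 19. CAST sites were inside genes at 323 of 747, 43.2%, against 53.1% on the other autosomes. HUM sites were inside genes at 279 of 537, 52.0%, against 57.3% on the other autosomes. The number of sites was 9.02 per Mb on chromosome 3, against a mean of 10.1 ± 0.857 over the other autosomes (SD), 17th of 19. The median spacing of sites was 57.4 kb on chromosome 3, against a mean of 56.5 ± 4.32 kb over the other autosomes (SD), inside their spread.

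At least 1 site lay in 327 of the 983 protein-coding genes of the chromosome (33.3%), and 184 of these genes held 1. Fndc3b held the most, 12 sites in 295 kb, with a median DMC1 of 169.9 and a median ratio of 10.3. Iqschfp held 11, and 8 lay in Schip1, which overlaps it, so these sites are counted in both. Maml3, a coactivator of Notch signalling, held 11 and St6galnac3, a sialyltransferase, held 10. Ank2, the ankyrin-B gene, held 9, of which 7 were CAST, with a median ratio of 15.4 and a strongest DMC1 of 694 at 127266460. Negr1, a neuronal adhesion protein, held 8 with a median ratio of 3.60, and Pde4dip, a centrosome and Golgi protein, held 8 with 7.03. The genes with the most sites thus had ratios on both sides of the chromosome median.

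From a list of 57 meiotic genes, of which 55 were matched, 4 lie on chromosome 3, and the site in or nearest to each is given as a description. Mnd1, which helps DMC1 in strand exchange, held a HUM site at 84126880 with a DMC1 of 31.6 and an H3K4me3 of 3.69. Msh4, which stabilises crossover intermediates, held a CAST site at 153896072 with a DMC1 of 15.8 and an H3K4me3 of 2.75. The site nearest Hormad1, a protein of the chromosome axis, was a UNK site 5.57 kb away with a DMC1 of 12.5. That nearest Sycp1, the transverse filament of the synaptonemal complex, was a UNK site 82.6 kb away with a DMC1 of 97.8.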

How the data were processed

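The deposited table lists DMC1 sites of the hybrid on mm10. Per the file headers, DMC1 sites were called with the method of Davies et al. and H3K4me3 was measured with that of Hinch et al. Reads were mapped with BWA, per the submitters' processing notes, with no version given for DMC1 in the sources used here. The DMC1 heat and the H3K4me3 enrichment are signal values in the authors' own units, and the deposited B6 share of each is a fraction. There are no read counts, so the depth is unknown. Sites on the X chromosome and the MNase library were not used here. Allele class and overlap with PRDM9-independent peaks are the authors' own.

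The ratio, medians, differences and windows were computed on log2 values with a pseudocount of 0, with Python 3.11.15, numpy 2.4.6, pandas 2.3.3 and scipy 1.17.1, and were checked on simulated data. Gene positions and promoters are from RefSeq GRCm38.p6. There is 1 library per assay, so no test was made. The members, lists and stretches were chosen with earlier results of these data known. Named sites are the 5 CAST and 5 HUM sites of highest DMC1, the 5 highest and 5 lowest ratios among the stronger sites (DMC1 and H3K4me3 ranks summing to at least the median), the 3 most B6 and 3 most CAST shares of the 100 strongest, and the strongest sites of the 3 highest and 3 lowest windows. Genes are those with 8 or more sites.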

Additional observations from a re-analysis of the deposited data

How the results depend on the processing

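The higher ratio of chromosome 3 stayed between 0.31 and 0.42 on the log2 scale over 13 alternatives. Of 81 alternatives for 16 results, 52 stayed within 1 SD over the other 18 autosomes or within the binomial interval, 22 moved and 7 turned in sign, and 10 were chosen after seeing the data. The DMC1 difference (0.08) was -0.12 without sites that repeat the H3K4me3 value of an earlier site, 0.16 without any repeated value, -0.0942 for CAST sites, 0.27 for HUM sites, 0.21 without the lowest 10% of sites and -0.00632 at H3K4me3 shares of 0.3 to 0.7. The H3K4me3 difference (-0.22) was -0.48 without sites that repeat an earlier value, -0.0624 without any repeated value, -0.41 for CAST sites, -0.0737 for HUM sites and -0.35 at shares of 0.3 to 0.7. Which site counts as earlier depends on the order of the table. CAST minus HUM in H3K4me3 (0.02) was -0.0298 by means (0.23 on the other autosomes), -0.0018 without sites that repeat an earlier value (0.44), -0.22 at shares of 0.3 to 0.7 (0.17) and -0.0168 outside genes (0.33), so its sign on chromosome 3 is not fixed, while in these 4 settings it was below the other autosomes. CAST minus HUM in DMC1 (0.32) was 0.49 without sites that repeat an earlier value, against 0.88 on the other autosomes. The Spearman correlation (0.711) was 0.780 without PRDM9-independent sites, 0.628 without the lowest 10% and 0.752 for CAST sites. On the other autosomes these were 0.771, 0.668 and 0.742. With limits of 0.95 and 0.05, the DMC1 shares were 20.5% and 6.82% for CAST and 13.4% and 15.4% for HUM sites. On the other autosomes they were 16.7% and 6.87% for CAST and 12.6% and 13.1% for HUM sites. By H3K4me3 share with the limits of 0.9 and 0.1 they were 11.4%, 4.15%, 7.09% and 6.88% on chromosome 3. The other autosomes had 10.85%, 3.57%, 7.25% and 6.56%. With 5 kb flanks, 52.4% of chromosome 3 sites and 60.6% of the others lay inside genes. With 10 Mb windows the range of window medians was 0.877 on chromosome 3, against 1.33 with 5 Mb windows. Its mean over the other autosomes was 1.11 with 10 Mb windows. No paired analysis was possible because each assay has 1 library, and for the same reason no replicate could be left out.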

Other observations

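Across the 19 autosomes, those with less gene sequence had higher ratios. The Spearman correlation of the median log2 ratio with the percent of the chromosome covered by protein-coding genes was -0.69 over 19 autosomes and -0.63 over the 18 without chromosome 3. With protein-coding genes per Mb it was -0.72 over 19 and -0.71 over 18. All autosomes share the same libraries, and no p-value is given. Chromosome 3 had 6.35 genes per Mb, 16th of 19, and chromosome 12, second in ratio, had the fewest at 5.81.

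Within chromosome 3 this order was not seen. Over its 31 windows of 5 Mb, the Spearman correlation of the window ratio with the percent covered by genes was 0.11 and with the number of genes -0.02, against -0.15 and -0.28 over the 457 windows of the other autosomes. The correlation of the window ratio with median DMC1 was 0.55 on chromosome 3 and 0.37 on the other autosomes, and with median H3K4me3 it was -0.25 on chromosome 3 and -0.49 on the other autosomes. The correlation larger in size was that with DMC1 on chromosome 3 and that with H3K4me3 on the other autosomes. The ratio is DMC1 over H3K4me3, so part of each of these correlations is built in. Their size also depends on how much each component varies between windows. Their order therefore cannot show which component sets the window ratio, and no conclusion is drawn from it. On chromosome 3, window medians ran between 30.6 and 96.5 for DMC1 and between 7.35 and 13.5 for H3K4me3.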
